A study of Mus musculus with 12 samples.

Results

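Some probes of this long non-coding RNA array overlap each other in sequence. Probes of the array's scanner files that share a run of 25 or more consecutive bases on the printed strand were linked, and every connected group of 20 to 71 probes was taken as a family. This gave 20 families with 688 of the 90752 probes on the array, or 0.758%. All probes are 60 bases long. Another 1790 probes lay in 7 larger families, 11639 in groups of 2 to 19 and 76635 overlapped no other probe. The families were lettered A to T by size, from 71 members in family A to 20 in families S and T. No measured value entered the choice of members. Members of a family share sequence, so they are not independent readings of separate RNAs, and 1 labelled RNA can hybridise to several of them.

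The study followed the distal sciatic nerve after injury in C57Bl6 mice of about 2 months. The right nerve was crushed for 30 s, and the distal 0.5 cm was taken at day 0, day 3, day 7 or day 14 after injury, with 18 mice per time point. RNA of 6 mice was pooled into each sample, which gave 3 pools per time point and 72 mice in all, and each pool was labelled with the dye Cy3 and hybridised to 1 array. No genotype or drug treatment separated the groups, and time after the crush was the only difference the labels state. The labels call the pools biological replicates, so p-values measure the spread between pools, and no single animal was measured. The 12 arrays lay on 3 slides. Slide 1 held replicates 1 and 2 of day 0 and of day 3. Slide 2 held replicate 3 of day 0, replicate 3 of day 3 and replicates 2 and 3 of day 7. Slide 3 held replicate 1 of day 7 and all of day 14, so day 14 shared no slide with day 0 or day 3. Between 64.2% and 79.5% of spots were well above background on an array, the share was lowest at day 14, and no spot was saturated.

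Much of a mammalian genome consists of sequence present in many near-identical copies, and a probe drawn from such a copy reads the family rather than a locus. Short interspersed elements such as B1, B2 and ID are copied through RNA made by RNA polymerase III, and they are also carried inside many longer transcripts. Endogenous retroviruses end in long terminal repeats that supply a promoter and a polyadenylation signal. Other multicopy RNAs are parts of cell machinery, such as 5S ribosomal RNA in the ribosome, U1 small nuclear RNA, which recognises splice sites, and C/D box small nucleolar RNAs, most of which guide methylation of other RNAs. In a crushed nerve, axons beyond the injury degenerate, Schwann cells shed myelin and divide, macrophages enter, and axons later regrow.

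The sequences are shown first because no table used here pairs the probes with genes, and the letters are what identifies a family. For each family the member linked to the most others is given, 5′ to 3′ as printed in the files, with the 25-base run held by most members in capitals. The families that held most of the falls after injury come first.
Family I: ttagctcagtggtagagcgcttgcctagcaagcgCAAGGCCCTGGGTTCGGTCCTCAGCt
Family M: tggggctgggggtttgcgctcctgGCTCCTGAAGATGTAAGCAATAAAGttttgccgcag
Family C: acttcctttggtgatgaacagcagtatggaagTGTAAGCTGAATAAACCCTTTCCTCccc
Family G: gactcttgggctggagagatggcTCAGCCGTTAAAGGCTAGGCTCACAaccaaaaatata
Family J: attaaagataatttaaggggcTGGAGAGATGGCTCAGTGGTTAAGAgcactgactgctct
Family T: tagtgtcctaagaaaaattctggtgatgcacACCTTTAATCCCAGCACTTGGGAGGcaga
The letters of family I are those of the ID element and of BC1, a small RNA of neurons that is found in dendrites and axons. Of its 31 members, 9 held the run in capitals. Family M has the letters of the long terminal repeat of intracisternal A particles, a mouse retrovirus family. Families G and J read the B2 element on its sense strand and family T the B1 element. Family C is left without a name. The polyadenylation signal AATAAA stood somewhere in all 58 of its members, and in 23 of the 24 members of family M. Among all probes of the array 14.7% held AATAAA as printed and 3.91% held its reverse complement. A motif match is a description of the letters and not a shown site.

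The next set is shown because these families varied between arrays of the same day, though not they alone. The standard deviation of the array medians reached 0.36 in H and in Q, at day 7. It was 0.42 in I at day 3 and 0.41 in O at day 14.
Family P: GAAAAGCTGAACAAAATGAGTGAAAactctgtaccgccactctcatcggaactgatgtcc
Family R: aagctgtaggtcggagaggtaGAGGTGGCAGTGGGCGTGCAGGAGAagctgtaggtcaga
Family A: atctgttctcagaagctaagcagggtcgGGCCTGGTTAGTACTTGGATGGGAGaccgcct
Family H: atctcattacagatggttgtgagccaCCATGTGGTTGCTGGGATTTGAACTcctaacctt
Family Q: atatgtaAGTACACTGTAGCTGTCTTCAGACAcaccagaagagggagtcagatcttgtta
Family P has the letters of SNORD116, an imprinted cluster of C/D box small nucleolar RNAs, and 19 of its 22 members held the run in capitals. Family R is a tandem repeat, with 18 of 21 members holding the run. Family A has the letters of 5S ribosomal RNA. Families H and Q read the B2 element on the antisense strand. Members of family H matched the reverse complement of 54 other probes over 25 bases, members of family J among them, and family Q matched 284, of which 281 lay in families of more than 71 probes.

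The families below are shown because they complete the set of families detected in most of their members.
Family B: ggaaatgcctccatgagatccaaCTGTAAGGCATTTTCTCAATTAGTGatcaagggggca
Family D: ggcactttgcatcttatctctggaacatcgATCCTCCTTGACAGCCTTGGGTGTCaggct
Family O: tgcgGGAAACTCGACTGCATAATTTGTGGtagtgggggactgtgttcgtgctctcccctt
Family S: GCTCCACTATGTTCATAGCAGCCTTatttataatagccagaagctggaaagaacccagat
Family O has the letters of U1 RNA: the site AATTTGTGG, to which Sm proteins bind in U1, stood in 21 of its 23 members and in 0.0904% of all probes as printed, with its reverse complement in 0.0309%. Family D shares up to 60 bases with the hairpins of Mir680-1 and Mir680-2. Of the 20 members of family S, 13 shared a run of 25 bases with the reverse complement of a member of the same family.

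The last set is shown because most members were not well above background on any array.
Family E: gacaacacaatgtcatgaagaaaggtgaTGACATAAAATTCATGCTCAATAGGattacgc
Family F: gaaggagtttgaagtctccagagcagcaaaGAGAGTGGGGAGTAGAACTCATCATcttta
Family K: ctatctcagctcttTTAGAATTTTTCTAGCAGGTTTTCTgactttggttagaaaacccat
Family L: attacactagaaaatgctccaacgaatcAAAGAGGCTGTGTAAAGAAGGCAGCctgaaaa
Family N: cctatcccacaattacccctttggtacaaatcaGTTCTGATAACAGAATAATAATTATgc
Family E has the letters of SNORD115, a C/D box small nucleolar RNA cluster known from brain. The C box TGATGA stood in 43 of its 44 members, in 2.39% of all probes as printed and in 1.85% as the reverse complement. It also stood in 33 of 58 members of family C.

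RefSeq sequences of build GRCm38.p6 matched some families, and the runs below are shown because members share them with windows around gene starts. They came from a scan of 32851 windows around the start sites of 27025 genes and of 1005 microRNA hairpins, matched by runs of 25 bases. Apart from the hairpins nothing else was scanned, so a match lies near a start by construction and does not place a family there.
Bc1, bases 1 to 44 from the start of the gene, chr7:144914470-144914513 on the plus strand, shared with family I: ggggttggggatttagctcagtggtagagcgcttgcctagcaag
Gm26232, chr3:96450542-96450601 on the plus strand, before the annotated start, shared with family O: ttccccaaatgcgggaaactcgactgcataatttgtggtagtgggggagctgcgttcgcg
Gm40237, chr4:118547396-118547454 on the plus strand, across the annotated start, shared with family R: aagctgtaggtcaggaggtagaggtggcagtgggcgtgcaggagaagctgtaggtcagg
Of the family I members, 14 of 31 shared 25 bases with the Bc1 window, which ends 50 bases after the start. Whether the others lie further along Bc1 or in other copies of the element cannot be read from that window. For family O the share was 15 of 23, and for family R it was 21 of 21. The Gm40237 window repeated itself with a period of 44 bases, at which 96.1% of its positions were identical over 300 bases. The element families matched many start windows: 112 for family H, 80 for Q, 61 for B, 44 for J, 27 for C, 26 for M, 20 for G and 13 for T. Families A, E, F, K, L, N and P matched none of the windows scanned.

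Some mature microRNA sequences lie inside the probes, shown here with the seed, bases 2 to 8, in capitals.
mmu-miR-3471: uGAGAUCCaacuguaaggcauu
mmu-miR-3473a: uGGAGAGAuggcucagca
mmu-miR-3473b: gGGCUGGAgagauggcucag
mmu-miR-690: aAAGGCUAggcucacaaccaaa
mmu-miR-3472: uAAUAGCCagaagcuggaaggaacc
The whole of mmu-miR-3471 stood in 8 of 60 members of family B and mmu-miR-3472 in 1 member of family S. Family G held mmu-miR-3473a in 12, mmu-miR-3473b in 20 and mmu-miR-690 in 9 of its 35 members, and family J held mmu-miR-3473b in 9 of 30. The 5 seeds differ from each other. A probe of 60 bases over such a stretch reads any longer RNA that contains it, and mature microRNA levels were not measured.

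Families also differed in how tightly they hang together. Every pair of members was linked directly in 92.9% of cases in family R and 87.0% in family P, but in 16.0% in family K, where members connect through chains. With links of 20 bases, families G and J joined in a group of 1693 probes, 984 of them from families of over 71. Family T joined a group of 1052 probes, 450 of them from such families, and H joined Q. With links of 30 bases, families F, P and R each stayed whole, while family T split into 18 pieces of which the largest had 3 members.

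Levels are given on the scaled log2 signal: the log2 of the processed spot signal after each array was brought to a common 75th percentile. The lowest signal well above background lay between 3.38 and 4.58 on the 12 arrays. The 31 members of family I lay between 13.23 and 16.96, with a median of 16.31. The family medians were 15.47 for J, 15.17 for M, 14.47 for S, 14.02 for T, 13.80 for O, 12.96 for G, 12.95 for C, 12.14 for A, 12.04 for B and 11.02 for H. They were 8.78 for D, 8.57 for Q, 7.82 for R and 6.33 for P. Probes bind with different strength, so these levels describe each family and set no order of abundance between RNAs.

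Tests were limited to probes that stood well above background on each of the 3 arrays of some time point, which left 527 members and 62803 probes of the whole array. The 161 members left out came almost entirely from the dim set. None of the 44 members of E, the 43 of F or the 24 of L was tested, 3 of 25 were in K and 2 of 23 in N. In family E 43 members were not well above background on any array, in F 40, in L 24, in K 17 and in N 14. Family medians there ran from 1.88 to 2.56, under the lowest signal counted as above background. In family P the number seen on all 3 arrays of a time point was 19 of 22 at day 0, 16 at day 3, 15 at day 7 and 14 at day 14. The other tested sets were 22 of 23 in O, 17 of 20 in S, and all members in A, B, C, D, G, H, I, J, M, Q, R and T.

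Members moved alike across arrays in most families, to different degrees. The mean correlation between pairs of tested members over the 12 arrays was 0.97 in family I, 0.95 in R, 0.93 in A, 0.87 in Q, 0.87 in P and 0.83 in H. It was 0.71 in D, 0.66 in T and in J, 0.64 in M, 0.62 in O and B, 0.55 in G, 0.50 in C and 0.43 in S. It was −0.07 among the 3 tested members of K and −0.31 for the single pair in N, against 0.0148 for pairs over all tested probes. These points share sequence, array and slide, so the values are descriptions. With each time point's mean removed, the correlation stayed at 0.87 in I, 0.89 in R and 0.91 in A, but was 0.19 in C, 0.22 in G, 0.25 in T and 0.28 in J. Members of A, I, R, H and Q thus also varied together between arrays of a day, with 0.84 in H and 0.88 in Q. The value was 0.77 in P, 0.72 in B and O, 0.71 in D, 0.70 in M and 0.51 in S. On days 0, 3 and 7 the pools also lay on different slides.

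Pooled over families, agreement was higher for longer shared runs. The 105 pairs sharing 50 to 59 bases had a mean correlation of 0.949, the 293 pairs sharing 40 to 49 bases 0.911, the 3110 pairs sharing 25 to 39 bases 0.827 and the 7535 pairs of a family with no shared run of 25 bases 0.669. This did not hold in every family: pairs of T had 0.63 with 25 to 39 shared bases and 0.67 with none, and pairs of R had 0.95 with 40 to 49 and 0.95 with none. The correlation of a member's level with its GC content differed between families. It was 0.88 over the 31 members of family I, 0.69 over the 20 of S and 0.66 over the 71 of A, but −0.64 over the 21 of R and −0.23 over the 24 of M. In family A the 32 members with the run in capitals had a median level of 13.01 and the 39 without it 11.05.

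Against day 0, most members that were called had fallen. At day 3, 7 members were higher and 62 lower than at day 0 by limma's moderated test, with a Benjamini-Hochberg adjusted p below 0.05 over all 62803 probes. Among all probes 44.4% were called at day 3, 21.7% higher and 22.7% lower. At day 7, 1 member was higher and 148 were lower, beside 44.4% of all probes called, 20.4% higher and 24% lower. At day 14, 2 were higher and 201 lower, beside 48.4% of all probes called, 19.4% higher and 29.0% lower. The share of members called was thus 13.1%, 28.3% and 38.5% on the 3 days, under the share of all probes on each, and few of the calls were rises. At day 3 that split did not hold under every choice. It turned within slide 2, where 1 array of each of these days is compared. Families built from links of 30 bases had 61 rises and 29 falls. Those families are partly other probes, since 335 of their 514 members are among the 688. The median change of the tested members was −0.02, −0.24 and −0.28 on the log2 scale, and that of all tested probes 0.03, −0.11 and −0.13. The 3 comparisons share the same day 0 arrays, so they are not independent of each other. Quantile normalization moved the median of all tested probes to −0.01 at day 7 and 0.01 at day 14, so changes are best read relative to those shifts of about 0.1.

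Arrays of day 3 and day 0 did not overlap in 151 members, 86 of them lower, while 50.8% of all probes did not overlap and 25.7% were lower. At day 7 the counts were 197 and 182, beside 53.4% and 28.1%, and at day 14 they were 266 and 238, beside 60% and 34.7%. With a change of 2-fold or more required as well, 32, 54 and 69 members were called on days 3, 7 and 14, beside 18.7%, 16.6% and 17.4% of all probes. A few families held most of the falls. Families I and M, with 55 of the 527 tested members, had 47 of the 62 falls at day 3, 53 of 148 at day 7 and 51 of 201 at day 14. Families C, G, J and T, with 143 tested members, had 9, 77 and 93. Families P and R, with 40 tested members, had 0, 7 and 37. Lower on all 3 days were 53 members, or 10.1%, of which 31 belonged to I, 16 to M, 4 to C and 1 each to S and T, beside 10.6% of all tested probes.

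Family I, the ID and BC1 family, was lower at every time after the crush in every member. The median of its members was 17.18, 17.03 and 17.49 on the 3 day 0 arrays and 15.78, 15.91 and 16.57 at day 3. It was 15.69, 15.92 and 15.69 at day 7 and 16.07, 15.86 and 16.04 at day 14. The day 0 arrays were the highest, the day 3 array on slide 2 came nearest to them, and no later array overlapped day 0 in any of the 31 members. All 31 fell at day 3, day 7 and day 14, with median changes of −1.04, −1.29 and −1.09, or 0.485, 0.409 and 0.471 of the day 0 level. The highest adjusted p among them was 0.0082 at day 3, 0.0041 at day 7 and 0.0093 at day 14 by limma. Without any 1 of the arrays compared, 31 still fell on each day. In bulk RNA, fewer cells or axons that hold an RNA and less of it per cell cannot be told apart.

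Family I was brighter on slide 2 than on slide 1 on both days the slides share, by a median of 0.35 at day 0 and 0.67 at day 3. Within slide 1 the median change at day 3 was −1.14 and all 31 members were called. Within slide 2 it was −0.85 at day 3 with 13 called and −1.51 at day 7 with 31 called. Day 0 and day 3 have 1 array each there, assumed to vary like the 2 of day 7, so these calls describe those arrays. With slide as a fixed block the median changes were −1.04, −1.61 and −1.38, and all 31 members were below 0 on each day. The 14 members that share 25 bases with the Bc1 window, a run that other copies of the element can hold too, had median changes of −1.04, −1.30 and −1.14 on the 3 days. The 17 others had medians of −1.04, −1.29 and −1.09. The window ends 50 bases after the start, so these sets do not separate probes of Bc1 from probes of other copies. The difference between these sets was not tested, and at day 7 the greatest fall was −2.06 in the first set and −1.63 in the other.

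The family I member with the greatest fall is shown because it holds only part of the element, the 17 bases in capitals being its longest run in common with the member shown for the family.
MOUSELNCRNA_58656: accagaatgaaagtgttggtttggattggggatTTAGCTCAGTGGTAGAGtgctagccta
Its scaled log2 signal was 14.83, 14.61 and 14.25 at day 0 and 13.28, 13.41 and 13.16 at day 3. It was 12.41, 12.64 and 12.45 at day 7 and 12.63, 12.46 and 12.63 at day 14. Days 0, 3 and 7 formed separate steps down, and days 7 and 14 overlapped. Its change was −2.06 (SE 0.15, adjusted p = 1.43e-06 by limma) at day 7 and −1.99 (adjusted p = 4.33e-06) at day 14. It was the only member of the family below 0 in the comparison of slide 2 with slide 1.

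Family M, the retroviral long terminal repeat, fell early and came part of the way back. Its array medians were 15.51, 15.50 and 15.78 at day 0, 15.11, 14.94 and 15.33 at day 3, 14.69, 14.75 and 14.60 at day 7, and 15.15, 15.14 and 14.99 at day 14. Day 7 was the lowest and lay below every other array. Of 24 members, 16 fell at day 3, 22 at day 7 and 20 at day 14, with medians of −0.53, −0.94 and −0.53. A fixed slide block gave 16, 22 and 18 falls. Without replicate 3 of day 14, 13 members fell at day 14.

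The members of family M did not all move alike. The 11 members with the full 25-base run had a median change of −1.0 at day 3, with 10 falls, and the 13 without it −0.27, with 6 falls. At day 7 the medians were −1.16, with 11 falls, and −0.66, with 11. At day 14 they were −0.54, with 11 falls, and −0.40, with 9. This split was not tested. The family M members below are shown for that contrast, with their longest run in common with the member shown for the family in capitals. The second pair was chosen after its values were seen.
MOUSELNCRNA_55223, holding the full run: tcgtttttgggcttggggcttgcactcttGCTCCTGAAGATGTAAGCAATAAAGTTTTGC
MOUSELNCRNA_23150, holding the full run: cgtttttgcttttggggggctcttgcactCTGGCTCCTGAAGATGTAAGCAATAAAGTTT
a member without the full run: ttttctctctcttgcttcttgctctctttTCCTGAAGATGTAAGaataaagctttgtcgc
a member that starts further along the repeat: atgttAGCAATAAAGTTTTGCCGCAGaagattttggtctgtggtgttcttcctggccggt
MOUSELNCRNA_55223 read 14.79, 14.64 and 14.89 at day 0, 12.97, 12.93 and 13.07 at day 3, 12.86, 12.86 and 12.95 at day 7, and 14.06, 14.14 and 13.92 at day 14. Day 14 lay between day 0 and the earlier days without touching either. It changed by −1.78 at day 3 (SE 0.10, adjusted p = 2.13e-07 by limma), −1.88 at day 7 (adjusted p = 2.28e-07) and −0.73 at day 14 (adjusted p = 0.000275).

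The member without the full run read 15.46, 15.69 and 15.81 at day 0 and 15.70, 15.59 and 15.94 at day 3, so these days overlapped. It read 15.06, 15.22 and 15.12 at day 7 and 15.42, 15.26 and 15.12 at day 14, all below day 0. The member further along the repeat read 13.40, 13.54 and 13.68 at day 0 and 13.61, 13.66 and 14.04 at day 3, 13.78, 13.73 and 13.47 at day 7, and 13.72, 13.54 and 13.64 at day 14. The days overlapped, and it was called on no day. It holds 21 bases in common with the member shown for the family.

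Families C, G and J fell late and by less. Family T also fell by less, but part of its change was already there at day 3. Family C, whose members all hold the polyadenylation signal, had array medians of 13.09, 13.10 and 12.96 at day 0, 13.20, 13.12 and 13.26 at day 3, 12.76, 12.89 and 12.90 at day 7, and 12.70, 12.70 and 12.64 at day 14. The day 14 arrays were the lowest and close to each other. Of 58 members, 7 fell and 3 rose at day 3, 27 fell at day 7 and 42 fell at day 14, with median changes of −0.01, −0.24 and −0.37. Once slide was a fixed block in the model, 24 fell at day 7 and 3 at day 14, with a median at day 14 of −0.27. Over all probes, 30405 calls at day 14, 18191 of them falls, became 10379 and 6216 with that block. Within slide 2, 4 fell at day 7. Quantile normalization gave 16, 20 and 28 falls. Without replicate 1 or 2 of day 0, or replicate 1 of day 7, 17 fell at day 7.

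Family G, B2 on the sense strand, had no fall at day 3, 21 of 35 at day 7 and 22 at day 14, with medians of −0.05, −0.43 and −0.45. All of these falls were among the 27 members without the run in capitals, the stretch that overlaps mmu-miR-690. The 8 members with it had medians of 0.01, −0.18 and 0.01. Family J, B2 as well, had 0, 15 and 17 falls among 30 members, with medians of −0.04, −0.26 and −0.30. Of the members with the run in capitals 9 of 11 fell at day 7 and 10 of 11 at day 14, and of those without it 6 of 19 and 7 of 19. The members share sequence, and neither split was tested. Family T, the B1 element, had 2, 14 and 12 falls among 20, with medians of −0.22, −0.37 and −0.39. Its array medians were 14.34, 14.38 and 14.16 at day 0 and 14.07, 14.12 and 13.90 at day 3, with no overlap. A fixed block for slide gave 20 and 14 falls in G at days 7 and 14, 29 and 22 in J, and 15, 17 and 14 in T over the 3 days. Quantile normalization gave 10, 12 and 10 falls in T and 11 in J at day 3. Within slide 2, which holds 1 array of day 0 and 2 of day 7, no member of G, J or T passed at day 7 by limma, with medians of −0.35, −0.35 and −0.43.

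In families P and R nearly all tested members fell at day 14, and their levels also differed between slides 1 and 2. Family P, the SNORD116 family, had array medians of 7.26 and 7.37 on slide 1 and 6.21 on slide 2 at day 0. At day 3 they were 7.22 and 7.22 on slide 1 and 6.40 on slide 2. At day 7 they were 6.30 and 5.99 on slide 2 and 5.98 on slide 3, and at day 14, on slide 3, 5.66, 5.87 and 5.72. The 4 slide 1 arrays stood above all others. Among the arrays off slide 1, day 0 lay within the range of day 7, and day 14 lay below all the rest. None of 19 tested members was called at day 3, where none passed an unadjusted p of 0.05 by limma either, 6 fell at day 7 and 17 at day 14, with medians of 0.08, −1.17 and −1.49. All 19 were well above background on the 3 arrays of day 0, but only 14 members were on those of day 14. Of all 22 members, 8 were so on no day 14 array, so some day 14 levels lie near background. The filter needs only 1 time point, so the tested members not among those 14 entered through an earlier day. Any falls of theirs are in these counts and medians, and the filter favours such falls.

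Slide 2 minus slide 1 was −1.27 at day 0 and −1.10 at day 3 in family P. All 19 members were lower on slide 2 on both days, 18 of them called lower in the fit with time point and slide, and 11 without replicate 3 of day 0. After slide was fitted as a fixed block the median was −0.11 at day 7 and −0.24 at day 14, and no member was called at either. No day 0 array lay on slide 3, so that fit rests on the few arrays of days 0, 3 and 7 that lie on different slides. Leaving out 1 array also moved the counts. At day 14, 7 members fell without replicate 1 or without replicate 2 of day 0, 10 without replicate 1 and 9 without replicate 3 of day 14. At day 7, 18 fell without replicate 3 of day 0, and 2 or 3 without replicate 1 or 2 of day 0 or replicate 1 or 3 of day 7. Calls over all probes moved as well. At day 14, 30405 became 20570 without replicate 1 of day 0 and 20330 without its replicate 2. The count was 22211 to 23552 without 1 array of day 14. At day 7, 27915 became 34952 without replicate 3 of day 0, and 21349 to 22956 without the other arrays just named for day 7.

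The family P member with the greatest fall at day 14 is shown for its 30 bases in common with the member shown for the family, which are in capitals.
MOUSELNCRNA_16868: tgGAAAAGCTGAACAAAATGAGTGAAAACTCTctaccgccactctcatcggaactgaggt
It read 8.62, 8.56 and 6.69 at day 0, 8.68, 8.70 and 7.16 at day 3, 6.22, 7.00 and 6.57 at day 7 and 6.22, 6.27 and 6.09 at day 14. Its replicate 3 of day 0, on slide 2, lay below a day 7 array. It changed by −1.76 at day 14 (SE 0.52, adjusted p = 0.0191 by limma). In the fit with a fixed slide block its change was −0.06, and the call was also lost without replicate 1 or 2 of day 0 or replicate 3 of day 14.

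Family R, the tandem repeat, had array medians of 8.86 and 8.68 on slide 1 and 7.29 on slide 2 at day 0, and 9.01 and 9.30 on slide 1 and 8.20 on slide 2 at day 3. At day 7 they were 8.19 and 7.15 on slide 2 and 6.97 on slide 3, and at day 14, on slide 3, 7.17, 6.64 and 6.86. The slide 1 arrays were again the highest, and days 7 and 14 overlapped. No member was called at day 3, where the median was 0.54 and 1 passed an unadjusted p of 0.05 by limma. At day 7, 1 of 21 fell, and at day 14, 20 fell, with medians of −0.80 and −1.30. When slide entered as a fixed block the median was 0.16 at day 7 and 0.098 at day 14, with no member called, so the direction turned. Slide 2 minus slide 1 was −1.39 at day 0 and −0.85 at day 3, with 17 members called lower, 1 without replicate 3 of day 0 and 8 without replicate 3 of day 3. At day 14, 1 member fell without replicate 1 of day 0, 2 without its replicate 2, 1 without replicate 2 of day 14 and 4 without its replicate 3. At day 7, 19 fell without replicate 3 of day 0 and 5 without replicate 2 of day 7. Calls over all probes moved without the day 0 and day 14 arrays as given for family P.

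Family A, 5S ribosomal RNA, had few calls and a wide spread between pools. Its array medians were 12.26, 12.88 and 11.82 at day 0, 12.37, 12.09 and 13.08 at day 3, 11.50, 12.33 and 11.85 at day 7, and 12.25, 11.45 and 12.12 at day 14. The highest array was replicate 3 of day 3 and the lowest replicate 2 of day 14, and day 0 overlapped every other day. Of 71 members, none was called at day 3, with 0 at an unadjusted p of 0.05 by limma, and 3 fell at day 7 and 3 at day 14, with medians of 0.27, −0.39 and −0.36. Without replicate 3 of day 0, 17 fell at day 7 and 15 at day 14. The slides ran opposite ways: at day 0 all 71 members were lower on slide 2 than on slide 1, with a median difference of −0.70, and at day 3, 67 were higher, with a median of 0.76. Within slide 1 the median change at day 3 was −0.22. Within slide 2 it was 1.27, with 52 members called higher, where 1 array of each day is compared and the spread comes from the 2 day 7 arrays alone. Most members moved together on each array, so the 71 probes are not independent readings, but at day 3, 4 members were lower on slide 2. The falls at days 7 and 14 were all among the 39 members without the run in capitals.

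Families H and Q, B2 on the antisense strand, stood higher at day 3 in every member, and next to none passed. The median change at day 3 was 0.42 in H, with 1 of 35 risen, and 0.40 in Q, with none of 22 called by limma and 4 at an unadjusted p of 0.05. The sense-strand families G and J had medians of −0.05 and −0.04 on that day. At day 14 the medians were −0.05 in H and −0.01 in Q, against −0.45 in G and −0.30 in J. Whether the strands differ was not tested.

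Families B, D, O and S had some calls against day 0 and small median changes. In B, 0, 5 and 12 of 60 members fell on days 3, 7 and 14, with 1 rise at day 3 and medians of 0.01, −0.10 and −0.14. At day 7 none fell without replicate 1 of day 0 or replicate 3 of day 7, 1 without replicate 2 of day 0 and 2 without replicate 1 of day 7. Without replicate 1 of day 0, 4 fell at day 14, without its replicate 2, 7, and without replicate 1 or 2 of day 14, 6 and 5. Calls over all probes also went down without each of these arrays, as given for family P. In O, U1 RNA, 1 of 22 members fell on each day, and the median at day 14 was 0.23. In S, 1, 2 and 2 of 17 members fell. In D, 3 of 57 members fell at day 3 and 1 rose at day 14. The member of D that rose at day 14 is shown with the 27 bases it shares with the member shown for the family in capitals.
MOUSELNCRNA_41034: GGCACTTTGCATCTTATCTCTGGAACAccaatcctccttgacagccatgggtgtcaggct
It read 7.06, 7.05 and 7.14 at day 0 and 7.57, 7.27 and 7.55 at day 14, with no overlap. Its rise was 0.38 (SE 0.10, adjusted p = 0.0112 by limma), and it was not called with slide as a fixed block, at 0.28.

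Single members of families C and K stood apart from their families at day 3. They are shown because they hold little of the sequence that links them to the member shown for the family, the longest run in common being in capitals.
MOUSELNCRNA_27919 of family C: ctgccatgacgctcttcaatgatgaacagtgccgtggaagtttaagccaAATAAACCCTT
MOUSELNCRNA_40248 of family C: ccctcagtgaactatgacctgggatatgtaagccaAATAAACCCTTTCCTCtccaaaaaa
MOUSELNCRNA_46606 of family K: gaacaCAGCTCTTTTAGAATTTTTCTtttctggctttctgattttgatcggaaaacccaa
MOUSELNCRNA_27919 read 8.85, 8.96 and 9.28 at day 0, 6.96, 7.25 and 6.67 at day 3, 8.05, 8.07 and 7.91 at day 7, and 7.95, 8.05 and 7.79 at day 14. Day 3 was the lowest and none of the later arrays reached day 0. It fell by 2.07 at day 3 (SE 0.16, adjusted p = 1.92e-06 by limma) and rose by 1.05 from day 3 to day 7 (adjusted p = 0.00116).

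MOUSELNCRNA_40248 read 10.54, 10.50 and 9.88 at day 0 and 11.34, 11.20 and 10.57 at day 3. On each day the slide 2 array was the lowest. Its change was 0.73 (SE 0.22, adjusted p = 0.018 by limma), and the call was lost without replicate 3 of day 0, without replicate 1 or 2 of day 3 and within slide 2. MOUSELNCRNA_46606 read 5.16, 5.54 and 5.29 at day 0, 6.53, 6.63 and 6.18 at day 3, 6.44, 6.46 and 6.55 at day 7, and 5.86, 5.97 and 6.15 at day 14. All later arrays were above all day 0 arrays. It rose by 1.12 at day 3 (SE 0.14, adjusted p = 8.39e-05 by limma), by 1.16 at day 7 (adjusted p = 8.92e-05) and by 0.66 at day 14 (adjusted p = 0.00422), and was the only member higher than day 0 on all 3 days. Of the other 2 tested members of family K, 1 rose and 1 fell at day 3, so the family had no common direction.

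Between day 3 and day 7, 3 members rose and 130 fell, beside 34.3% of all probes called, 15.7% higher and 18.6% lower. The arrays of these days did not overlap in 192 members, 183 of them lower, beside 48.5% and 27.8% of all probes. With a 2-fold change 40 were called, beside 8.34%. The falls were 26 in C, 21 in G, 17 in R, 13 in A, 12 in J, 11 in M, 9 in P, 8 in B, 6 in T, 3 in I, 2 in H and 2 in S, and the 3 rises were in C. Several of these counts moved when 1 array was left out, as did the calls over all probes given below. Without replicate 1 or 2 of day 3, or replicate 1 or 3 of day 7, 1 fell in R, none in P and 0 or 1 in T. In A 1 fell without replicate 1 of day 3, 4 without its replicate 3, none without replicate 1 of day 7 and 1 without its replicate 3. In C the lowest count was 9, without replicate 1 of day 7, in M 6, without replicate 1 or 3 of day 7, and in B 0, without replicate 3 of day 7. The other way, 18 fell in P without replicate 3 of day 3, and without replicate 2 of day 7, 20 fell in A and 15 in H. In D 19 rose without replicate 3 of day 3. Within slide 2, which holds both days, 3 members rose and none fell, with 1 array of day 3 there. With quantile normalization the split was 20 higher and 77 lower. Leaving out replicate 1 of day 3 left 57 calls, replicate 2 of day 3 left 81, and replicate 1 or 3 of day 7 left 53 or 55. Over all probes, 21533 calls became 12088 and 15253 without those day 3 arrays. Without those day 7 arrays they became 12180 and 13724.

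The members with the greatest falls in this comparison are shown because they belong to R and A, families whose arrays of the same day lay far apart.
MOUSELNCRNA_62434 of family R: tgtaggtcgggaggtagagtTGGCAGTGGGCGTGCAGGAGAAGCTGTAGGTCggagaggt
MOUSELNCRNA_87161 of family A: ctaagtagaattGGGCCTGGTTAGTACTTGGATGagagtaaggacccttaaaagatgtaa
MOUSELNCRNA_62434 read 9.07, 9.47 and 7.87 at day 3 and 6.52, 7.86 and 6.93 at day 7. The slide 2 arrays of the days nearly met, at 7.87 and 7.86. Its fall was −1.70 (SE 0.52, adjusted p = 0.0309 by limma) and −0.42 with slide as a fixed block. MOUSELNCRNA_87161 fell by 1.63 (SE 0.54, adjusted p = 0.0402 by limma), and that block gave −0.50. Neither was called in that fit. Each call was lost without replicate 1 or 2 of day 3 or replicate 1 or 3 of day 7.

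Between day 3 and day 14, 39 members rose and 180 fell, beside 54.7% of all probes called, 21.9% higher and 32.8% lower. The arrays did not overlap in 296 members, 247 of them lower, beside 63.7% and 38.9%, and 62 members changed by 2-fold or more, beside 19.4%. Of the rises, 23 were in D, 9 in M, 6 in C and 1 in K. The rises in D had a family median of 0.29 and moved with single arrays: 43 without replicate 3 of day 3, and 3 to 9 without any other array compared. All 21 members of R and 17 of the 19 of P fell, with medians of −1.92 and −1.40, but none of either was called with slide as a fixed block. In that fit the median of R was −0.48, and the calls over all probes went from 34355 to 11457. In A 16 fell, and 1, 6 and 7 without replicate 2 of day 14, replicate 1 of day 3 and replicate 3 of day 3. In H 17 fell, with a median of −0.50, and 4, 9 and 6 without replicate 2 of day 14, replicate 2 of day 3 and replicate 3 of day 3. In Q 5 fell. Day 3 and day 14 share no slide. With quantile normalization 83 members were higher and 124 lower.

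The named members of this comparison were MOUSELNCRNA_23150 of family M, which rose by 1.05 (SE 0.15, adjusted p = 0.000247 by limma), and MOUSELNCRNA_22737 of family C, which rose by 1.02 (adjusted p = 0.000293) and overlaps MOUSELNCRNA_27919 with a shift of 1 base. MOUSELNCRNA_54454 of family R fell by 2.23 (SE 0.56, adjusted p = 0.00761), which the fixed slide block brought to −0.43 without a call. MOUSELNCRNA_16868 of family P fell by 1.99 (adjusted p = 0.00951), which that block brought to −0.28 without a call.

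Between day 7 and day 14, 13 members rose and none fell by limma, beside 9.96% of all probes called, 5.61% higher and 4.35% lower. At an unadjusted p of 0.05, 12 members were lower. The arrays did not overlap in 93 members, 65 of them lower, beside 37.2% and 20.4%, and 2 members changed by 2-fold or more, beside 3.2%. The rises were 11 in family M, whose median was 0.42, and 2 in C. MOUSELNCRNA_23150 of family M read 15.19, 15.01 and 15.48 at day 0, 13.60, 13.47 and 13.88 at day 3, 13.56, 13.41 and 13.57 at day 7, and 14.66, 14.85 and 14.61 at day 14. Day 14 was above all arrays of days 3 and 7 and below all of day 0. It rose by 1.19 (SE 0.15, adjusted p = 0.000585 by limma). Within slide 3, which holds 1 array of day 7 and all of day 14, the median of M was 0.45 and no member was called by limma, with 33 of all 527 members at an unadjusted p of 0.05. The member of C named here is shown for the 12 bases it shares with the member shown for the family.
MOUSELNCRNA_52378: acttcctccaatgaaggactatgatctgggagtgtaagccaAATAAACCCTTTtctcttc
It read 9.12, 9.06 and 9.08 at day 0, 8.45, 8.43 and 8.61 at day 3, 8.59, 8.21 and 8.51 at day 7 and 9.09, 9.28 and 9.0 at day 14. Days 0 and 14 overlapped and lay above days 3 and 7. It rose by 0.69 from day 7 to day 14 (adjusted p = 0.00504 by limma), and the call was lost with slide as a fixed block, at 0.54.

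Slides differed at the same time point in many members. In the fit with time point and slide, 99 members were higher and 76 lower on slide 2 than on slide 1, beside 37.6% of all probes called, 16.8% higher and 20.8% lower. Of the members higher on slide 2, 25 were in I, 15 in B, 14 in M, 11 in D and 11 in J. Of those lower, 18 were in P, 17 in R and 10 in C. Without replicate 3 of day 3, 7 were higher in I and none in B, M or D. With quantile normalization the split was 38 higher and 89 lower. The comparison rests on 1 slide 2 array and 2 slide 1 arrays on each of day 0 and day 3, so a difference between pools and one between slides cannot be told apart, and without replicate 3 of day 3 it gave 58 calls. Slide 3 differed from slide 2 in no member by limma, with 43 at an unadjusted p of 0.05, beside 0.124% of all probes called, 0.0462% higher and 0.078% lower. That comparison rests on day 7 alone. In families I and M the median step from slide 1 to slide 2 was 0.51 and 0.28, opposite in sign to their changes from day 0. In P and R it was −1.15 and −1.10, of the same sign as their changes at day 14. Its part in those changes was not tested beyond the fits with slide given above.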

How the data were processed

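RNA of 12 pools of distal sciatic nerve was read on 12 one-colour Agilent arrays. The scanner files hold spot intensity values that the authors made with Agilent Feature Extraction. The submitters' processing notes give version 10.7 and the headers of the files 10.7.1.1. Per the file headers, these values are background-subtracted and have no normalization between arrays. Log2 values of the deposited series table served as an alternative. How that table was made is not given in the sources used here.

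Control spots and flagged outliers were left out, which left 25 values missing, and spots of a probe were averaged on the log2 scale. The 75th percentile of every array was brought to their mean, 9.34. Time point means over the 12 arrays were fitted with limma 3.58.1 (R 4.3.3), with 8 residual degrees of freedom, to 62803 probes that were well above background on each of the 3 arrays of some time point. P-values were adjusted over all of these. Probes were linked in Python 3.11.15 with pandas 2.3.3 and numpy 2.4.6, and the code was tested on simulated data. The number of arrays limits the precision.

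In each comparison of days up to 2 members with the greatest rise and 2 with the greatest fall were named, at most 1 per family and direction, among members called, well above background on all 6 arrays and without overlap between the days. In each family the member linked to the most others was shown. Members, lists and rules were chosen with earlier results of these data known. Promoter windows, hairpins and mature sequences are from RefSeq, build GRCm38.p6. The names given to families in the text rest on their letters. Markers of cell types could not be read, because no table used here pairs probes with genes.

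Same-numbered replicates of day 0 and day 3 deviated together, with correlations of 0.325, 0.449 and 0.590 over probes. Each such pair also shared a slide, and unequal numbers on slide 1 correlated alike. In the other comparisons not every pair was over 0.1. Alternatives were normalization, normexp background correction with an offset of 50, filters, thresholds, slide as a block (estimated correlation 0.562 where random), link lengths and each array left out.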

Additional observations from a re-analysis of the deposited data

Results flagged for a closer look

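In 4 families the array medians stood on opposite sides at day 0 and day 3: the slide 2 array lay on one side of both slide 1 arrays at day 0 and on the other side of both at day 3. Slide 2 minus slide 1 was −0.7562 at day 0 and 0.8490 at day 3 in family A, −0.1310 and 0.0998 in family C, −0.2031 and 0.4002 in family H, and −0.2949 and 0.3679 in family Q, on the log2 scale. These are differences of array medians. The median of the members' own differences at day 0 was −0.08 in Q, with 9 members higher and 13 lower, and −0.05 in C, with 22 and 36. In A and H every member was lower on that day. Each difference sets 1 array against 2, the difference between the days was not tested, and the cause was not tested.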

How the results depend on the processing

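The number of members called moved by over 1.5 times under some choices. For day 3 against day 0, 69 became 32 with a 2-fold change required, 108 with quantile normalization, the authors' table or slide as a fixed block, and 104 with a random block. Leaving out 1 array gave 58 to 81. For day 7, 149 became 54 with 2-fold, 57 within slide 2 and 56 with 30-base links, and 118 to 199 without 1 array. For day 14, 203 became 125 at adjusted p below 0.01, 69 with 2-fold, 105 and 133 with a fixed and a random slide block, and 102 with 30-base links, and 144 to 211 without 1 array. For day 7 against day 3, 133 became 32 at adjusted p below 0.01, 40 with 2-fold, 77 with no filter, 3 within slide 2, 83 with only the arrays compared, 76 and 48 with 20-base and 30-base links, and 53 to 147 without 1 array. For day 14 against day 3, 219 became 120, 62, 40 (fixed block), 85 (random block), 138 (20-base) and 135 (30-base), and 148 to 225 without 1 array. For day 14 against day 7, 13 became 2 with 2-fold, 0 within slide 3 and 1 with 30-base links, and 10 to 16 without 1 array. For slide 2 against slide 1, 175 became 71 at adjusted p below 0.01 and 32 with 2-fold, and 58 to 163 without 1 array. Over all probes, 27909, 27915 and 30405 calls on days 3, 7 and 14 became 35138, 23560 and 10379 with a fixed slide block. For day 14 against day 3, 34355 became 11457. Without 1 array, calls over all probes ran from 21349 to 34952 at day 7 and from 20330 to 35259 at day 14. They ran from 12088 to 27576 for day 7 against day 3. The number of families fell from 20 to 13 with 30-base links. Other link lengths also change which probes are counted. Of the 514 members with 30-base links 335 were among the 688, and of the 593 with 20-base links 392 were. The median of family R at day 14 turned to 0.098 with slide as a fixed block. The cause of these moves was not tested, apart from the stricter thresholds and the smaller sets, which call or hold fewer probes by construction.

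With the replicate number as a block, 64, 153 and 203 members were called on days 3, 7 and 14 against day 0, and 137, 198 and 13 in the comparisons of day 7 and day 14 with day 3 and of day 14 with day 7. No count moved by over 1.5 times under this block. Over all settings 122 repeated counts stayed within 1.5 times and 38 did not, and 1399 repeated family medians moved by less than the spread between replicates, 115 by more, and 1 reversed. No named member reversed. A signal near background limits families E, F, K, L and N: without the filter, 68 members rose at day 14 instead of 2, of which 12, 22, 14, 13 and 4 were in those families. Over all probes 19322 of 90752 rose at day 14 without the filter, and 12214 of 62803 with it.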
